A study of Mus musculus with 3 samples.

Results

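CpG-dense tiles inside gene bodies were examined in the DNA methylation of mouse spermatogonia at P7. A member was a 1-kb tile of an autosome that held at least 40 CpG positions with calls, lay inside a RefSeq gene and had its centre more than 5 kb from every transcript start. There were 918 such tiles, with at least 10 calls in each library, among 603716 autosomal tiles with as many calls. They lay in 714 genes, of which 574 held 1 member. Methylation was measured by whole-genome bisulfite shotgun sequencing, with 1 library each from WT spermatogonia and from spermatogonia of the Pld6 KO and of the Dnmt3L KO, the genotypes named here also as without Pld6 and without Dnmt3L. All mice were labelled as strain C57BL6/J at postnatal day 7, and the cells were sorted by FACS with an antibody against EpCAM. The methods name several mice for each genotype, with wild-type and heterozygous mice as WT, but 1 data file per genotype was analysed here. Whether a file, called a library below, holds 1 mouse or several is not given in the sources used here.

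CpG sites are rare in most of the mouse genome and cluster in CpG islands, many of which lie at transcript starts and stay free of methylation, while the bodies of genes are mostly methylated. Male germ cells lose most of their methylation before birth and gain a new pattern in prospermatogonia, the arrested cells from which spermatogonia arise. Dnmt3L is a catalytically inactive partner of the de novo methyltransferase Dnmt3a, and Pld6 is a mitochondrial protein needed to make piRNAs, small RNAs that direct silencing and methylation to retrotransposons. The comparison addressed here is how the CpG-dense stretches within genes, far from RefSeq starts, were methylated without each of these proteins.

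The libraries held 43757722 calls in WT, 64076569 without Pld6 and 19289688 without Dnmt3L, and the pooled autosomal levels were 0.704, 0.724 and 0.303. The gene Pld6 held a run of 42 CpG positions without calls in the Pld6 KO library, against runs of 3 and 11 in WT and Dnmt3L KO. In the gene Dnmt3l the longest such run was 53 in the Dnmt3L KO library, against 5 and 4 in WT and Pld6 KO. The region within 500 bp of the Kcnq1ot1 start, which male germ cells keep free of methylation, had levels of 0.0780 in WT, 0.0700 without Pld6 and 0.0154 without Dnmt3L, from 141, 243 and 65 calls. With 1 library per genotype there was no replicate spread and no test between genotypes, so that a difference between genotypes and a difference between libraries cannot be told apart. Intervals cover counting error only and treat the calls of a read as independent.

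The range of sequence and response among the tiles is shown by 7 stretches of 200 bases, each the most CpG-rich of its tile, read from the plus strand of GRCm38 with every CG in capitals. The stretch from Dact3 (chr7:16885366-16885565) comes from the tile with the most CpG positions, and the stretch from Nrxn2 (chr19:6428255-6428454) from one of the tiles with the lowest levels. Both lie in coding sequence. The centre of the Nrxn2 tile is 0.1455 kb from a transcript start of the GENCODE annotation, which the rule did not use.

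Dact3: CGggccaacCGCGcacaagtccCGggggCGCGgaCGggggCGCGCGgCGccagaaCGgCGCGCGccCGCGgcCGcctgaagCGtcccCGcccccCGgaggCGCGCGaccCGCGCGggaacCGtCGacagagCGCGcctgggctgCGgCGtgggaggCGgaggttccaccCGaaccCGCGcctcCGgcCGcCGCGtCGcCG

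Nrxn2: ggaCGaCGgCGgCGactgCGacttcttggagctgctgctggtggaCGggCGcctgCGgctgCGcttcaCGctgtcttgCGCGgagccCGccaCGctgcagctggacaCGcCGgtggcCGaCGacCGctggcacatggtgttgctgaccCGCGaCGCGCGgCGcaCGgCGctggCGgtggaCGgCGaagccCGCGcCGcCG

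These stretches hold 43 and 34 CG and were nearly free of methylation in each library. The Dact3 stretch had 7 methylated calls of 93 in WT, 0 of 148 without Pld6 and 0 of 18 without Dnmt3L, and the Nrxn2 stretch had 1 of 106, 1 of 166 and 0 of 14. The next stretches are also coding and come from tiles that were highly methylated in WT. Tenm3 (chr8:48276425-48276624) is shown for its loss of methylation in the Dnmt3L KO library, and Ahdc1 (chr4:133063010-133063209) for the level it kept there.

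Tenm3: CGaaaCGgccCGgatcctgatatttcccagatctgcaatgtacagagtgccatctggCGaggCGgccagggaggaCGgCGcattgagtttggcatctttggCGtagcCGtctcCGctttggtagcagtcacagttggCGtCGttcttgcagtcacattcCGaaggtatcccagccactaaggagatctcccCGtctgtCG

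Ahdc1: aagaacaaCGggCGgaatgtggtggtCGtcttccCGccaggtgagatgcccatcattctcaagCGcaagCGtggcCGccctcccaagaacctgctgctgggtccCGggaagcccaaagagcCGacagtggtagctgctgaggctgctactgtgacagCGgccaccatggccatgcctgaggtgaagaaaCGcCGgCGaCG

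The number of CG is alike in these stretches, 15 and 14, and the level without Dnmt3L is not. Tenm3 had 52 methylated calls of 59 in WT, 70 of 73 without Pld6 and 0 of 10 without Dnmt3L. Ahdc1 had 22 of 23, 67 of 70 and 8 of 10. A further coding stretch, from Plch2 (chr4:154984225-154984424), comes from a tile that was higher in Pld6 KO than in WT.

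Plch2: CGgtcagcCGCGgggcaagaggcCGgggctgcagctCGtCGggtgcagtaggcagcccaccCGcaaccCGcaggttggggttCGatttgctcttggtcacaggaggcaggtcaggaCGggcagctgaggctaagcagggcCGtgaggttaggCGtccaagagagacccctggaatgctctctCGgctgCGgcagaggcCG

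It holds 15 CG and had 0 methylated calls of 19 in WT, 35 of 54 without Pld6 and 0 of 15 without Dnmt3L. The last stretches lie in introns, in tiles that are mostly soft-masked as repeats in the reference. Acnat1 (chr4:49466375-49466574) is shown for its loss in the Pld6 KO library and Triqk (chr4:12934166-12934365) for its level there, which was near that of WT.

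Acnat1: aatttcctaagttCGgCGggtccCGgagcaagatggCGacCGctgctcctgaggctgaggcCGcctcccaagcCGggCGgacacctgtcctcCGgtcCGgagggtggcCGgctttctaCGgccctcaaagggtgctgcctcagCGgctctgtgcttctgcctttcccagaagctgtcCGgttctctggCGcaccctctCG

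Triqk: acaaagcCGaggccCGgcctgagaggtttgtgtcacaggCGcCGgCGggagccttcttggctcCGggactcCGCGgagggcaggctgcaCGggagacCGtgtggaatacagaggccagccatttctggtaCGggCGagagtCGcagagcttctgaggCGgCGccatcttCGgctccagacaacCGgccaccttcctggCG

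The Acnat1 stretch had 23 methylated calls of 27 in WT, 8 of 28 without Pld6 and 0 of 16 without Dnmt3L. The Triqk stretch had 13 of 13, 13 of 14 and 3 of 7.

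Most CpG-dense tiles inside genes were poorly methylated, and a smaller group was as highly methylated as the gene around it. In WT, 651 of the 918 tiles (70.9%) had a level under 0.2 and 180 (19.6%) had a level above 0.6, which left 87 between these limits. The median level over the tiles was 0.0783 in WT, 0.102 without Pld6 and 0.00957 without Dnmt3L. The levels pooled over all calls of the tiles were 0.178 in WT (95% Wilson interval 0.176 to 0.180), 0.247 without Pld6 (0.245 to 0.249) and 0.0608 without Dnmt3L (0.0589 to 0.0628). The tiles above 0.6 in WT held 12.8% of the calls in WT and 18.3% in Pld6 KO, and with each tile weighted by its WT calls the level was 0.198 without Pld6 and 0.0563 without Dnmt3L, a weighting added after the data were seen. The pooled levels rest on 149396, 201629 and 59311 calls, with a median of 140, 192 and 55 calls per tile. No methylated call was seen in 73 tiles in WT, 54 without Pld6 and 440 without Dnmt3L. For the tiles at 0 in Dnmt3L KO, the calls allowed a level of up to 0.0561 at the median, taking 3 calls as the most that a count of 0 could hide.

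These levels lay between those of tiles with fewer CpG positions in the same part of genes and those of CpG-dense tiles at transcript starts. The 188738 gene-body tiles with 10 to 39 CpG positions, more than 5 kb from a start, had median levels of 0.906 in WT, 0.892 without Pld6 and 0.444 without Dnmt3L, and 91.2% of them were above 0.6 in WT. The 14374 CpG-dense tiles centred within 1 kb of a start had medians of 0.00541, 0.00719 and 0, and 0.0696% of them were above 0.6 in WT. The 394 CpG-dense tiles outside genes and more than 5 kb from a start had medians of 0.0117, 0.0135 and 0, and 6.35% were above 0.6 in WT. These shares describe the sets and were not tested.

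**Figure D1:**
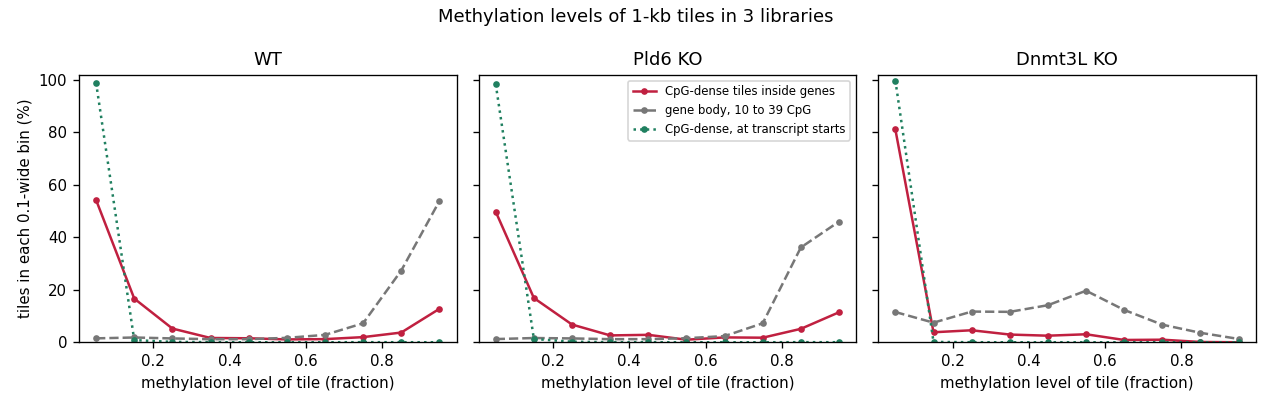
Share of tiles (%, y axis) in each 0.1-wide bin of methylation level (fraction, x axis) in WT, Pld6 KO and Dnmt3L KO, for the 918 CpG-dense tiles inside genes, the 188738 gene-body tiles with 10 to 39 CpG positions and the 14374 CpG-dense tiles at transcript starts. The CpG-dense tiles inside genes have a peak at each end in WT and Pld6 KO, and the upper peak is missing in Dnmt3L KO, where 18 tiles are above 0.6.

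The level fell with the number of CpG positions. Tiles with 40 to 49 positions had a median WT level of 0.141 and 27.5% of the 531 were above 0.6. This share was 14.9% of the 188 tiles with 50 to 59 positions, 4.42% of the 113 with 60 to 79, and 1.16% of the 86 with 80 or more, where the median level was 0.00856. Near the limit of the rule, the 227 tiles with 40 to 42 positions had a median WT level of 0.189 and the 370 tiles with 37 to 39 positions, which are no members, had 0.237. Near the limit of distance, the 107 members centred 5 to 6 kb from a start had a median of 0.0368 and the 153 tiles at 4 to 5 kb had 0.0260.

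The 5 tiles with the most CpG positions were at least 50% coding and were nearly free of methylation in each library. Dact3, which encodes a regulator of Wnt signalling, held 152 positions in its tile (chr7:16885001-16886000), with levels of 0.0492 in WT, 0.0123 without Pld6 and 0.0118 without Dnmt3L. The tiles in Zfp316 (142 positions), a zinc finger gene, Otud7a (142), a deubiquitinase gene, Nrxn2 (129), which encodes the presynaptic adhesion protein neurexin 2, and Apba1 (128), which encodes an adaptor of the synapse, had WT levels from 0.00208 to 0.0127. Their highest level in any library was 0.0358, for Zfp316 in Pld6 KO.

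The lowest WT levels by their upper Wilson bound were found in the same kind of sequence. Ptprs, a receptor tyrosine phosphatase gene, had 0 methylated calls of 330 in its tile (chr17:56425001-56426000) in WT. Its upper Wilson bound was 0.0115, and taking 3 calls as hidden allows a level of up to 0.00909. The levels of this tile were 0.0181 without Pld6 and 0 without Dnmt3L. A second Ptprs tile (chr17:56428001-56429000) had 0.472, 0.646 and 0.0286. The tiles in Scrt2, a gene for a neural zinc finger repressor, Zfp697 and Prr7 also had no methylated call in WT, among 297, 297 and 283 calls. Nrxn2 again belonged to this group, with 1 methylated call of 481. The centres of the Ptprs and Nrxn2 tiles lay 0.0395 and 0.1455 kb from a GENCODE transcript start, which the RefSeq rule did not use. Those of the Scrt2, Zfp697 and Prr7 tiles lay more than 5 kb from any GENCODE start.

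In coding exons the highly methylated tiles were more frequent than in introns. Of the 456 tiles at least 50% coding, 26.3% were above 0.6 in WT, against 14.6% of the 350 tiles in introns, and the median WT levels were 0.134 and 0.0378. The 86 tiles mostly in untranslated or noncoding exons had a median of 0.0313 and 9.30% above 0.6. The 26 tiles that were mostly exon, but neither mostly coding nor mostly noncoding, had a median of 0.0292. Among the highly methylated tiles the median Dnmt3L KO level was 0.322 in coding exons and 0.333 in introns. The 60 tiles in lncRNA genes had a median WT level of 0.00976, against 0.0930 for the 853 tiles in protein coding genes.

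Of the tiles, 469 (51.1%) lay in the last of 5 equal parts of the gene. The rule leaves out tiles near transcript starts, so this spread is in part set by the rule. By this position the median WT levels were 0.0344 in the first part (42 tiles), 0.0421, 0.0930 and 0.0714 in the next ones and 0.0946 in the last. By distance to the nearest start, 10.5% of the 370 tiles at 5 to 10 kb were above 0.6 in WT, against 25.2% of the 306 tiles at 10 to 20 kb and 28.9% of the 180 tiles at 20 to 50 kb. Farther out it was 18.6% of the 43 tiles at 50 to 100 kb and 21.1% of the 19 tiles beyond. A GENCODE transcript start that the RefSeq rule did not use lay within 1 kb of the centre of 209 tiles. These had a median WT level of 0.0309, and the other 709 tiles had 0.0930.

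Around the poorly methylated tiles the median methylation returned within 2 kb. For the tiles under 0.2 in WT, the median WT level was 0.0312 in the tile, 0.250 at 1 kb on each side, and 0.821 and 0.809 at 2 kb. Only 390 and 410 of the 651 tiles had a neighbour with enough calls at 2 kb. The first quartiles in WT there were 0.480 and 0.458, so that not all flanks were highly methylated. The Pld6 KO library had a profile of the same shape, with 0.0415 in the tile and 0.297 and 0.302 at 1 kb. In Dnmt3L KO the median was 0 in the tile, 0.0367 and 0.0385 at 1 kb, and 0.267 and 0.206 at 2 kb. The highly methylated tiles had no such profile in WT, where the tile had a median of 0.924 and the tiles at 1 kb had 0.934 and 0.933. In Dnmt3L KO, by contrast, they lay in a dip, with 0.322 in the tile and 0.500 at 1 kb on each side.

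**Figure D2:**
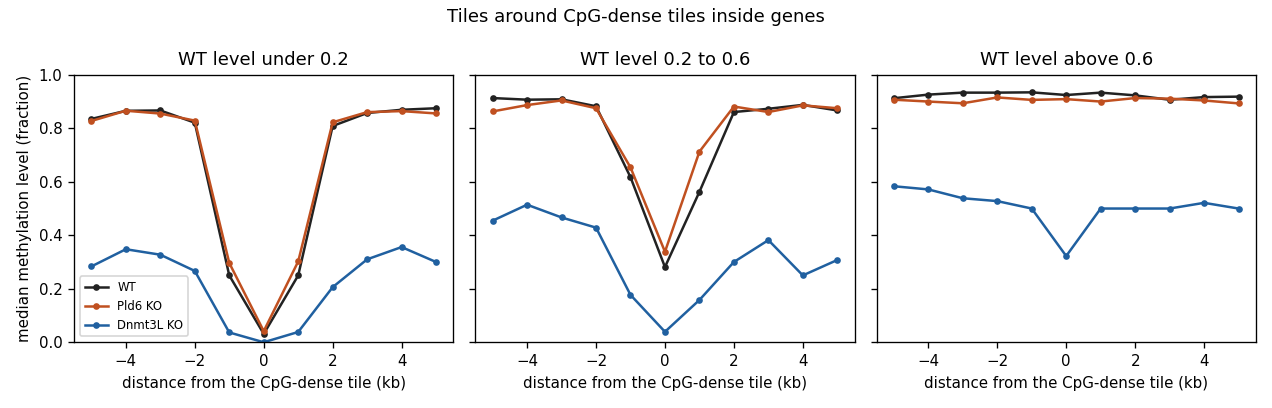
Median methylation level (fraction, y axis) in the 5 tiles on each side of CpG-dense tiles inside genes, by distance (kb, x axis), for tiles under 0.2, from 0.2 to 0.6 and above 0.6 in WT; lines are the 3 libraries. In the right panel the WT and Pld6 KO lines stay near 0.9, and the Dnmt3L KO line falls from 0.500 at 1 kb to 0.322 in the tile.

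In the Dnmt3L KO library 184 tiles (20.04%) were lower than in WT by at least 0.3, while 69.1% of all autosomal tiles were. None of the tiles was higher by at least 0.3, against 0.02% of all autosomal tiles. The 651 tiles under 0.2 in WT and the 48 from 0.2 to 0.3 could not be lower by 0.3. By Fisher's exact test on the calls (adjusted p under 0.05), which compares the libraries, 391 tiles (42.6%) were lower and 2 (0.218%) higher, against 68.3% and 0.0192% of all autosomal tiles. The members held more calls per tile than the autosomal tiles did, so these shares are not at equal depth. Against Pld6 KO, 208 tiles (22.7%) were lower in Dnmt3L KO by at least 0.3, while 68.7% of all autosomal tiles were, and 0 were higher, against 0.0137%. Of the 180 tiles above 0.6 in WT, 161 (89.4%) were lower by at least 0.3 in Dnmt3L KO, against 79.2% of 493726 such autosomal tiles. Of the 180 tiles, 56 (31.1%) fell below 0.2 and 18 (10%) were still above 0.6. Of the gene-body tiles with 10 to 19 CpG positions that were above 0.6 in WT, 11.9% and 26.4% were. These shares were not tested. Of the 87 tiles between 0.2 and 0.6 in WT, 23 were lower by at least 0.3, while 48 were under 0.3 in WT and could not be. Taking any size of difference, 780 of the 918 tiles were lower in Dnmt3L KO than in WT, 78 were higher and 60 were equal.

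Among gene-body tiles that were highly methylated in WT, the median level left in Dnmt3L KO was lower where CpG positions were more numerous, up to 59 positions. The median Dnmt3L KO level was 0.467 for tiles with 10 to 19 positions (149456 tiles), 0.462 with 20 to 29 (21204 tiles) and 0.419 with 30 to 39 (1454 tiles). It was 0.339 for the 146 members with 40 to 49 positions, 0.269 for the 28 with 50 to 59, and 0.304 for the 5 with 60 to 79. The Pld6 KO medians of the same bins lay between 0.899 and 0.913. The 1 highly methylated tile with 80 or more positions had levels of 0.610 without Pld6 and 0.0635 without Dnmt3L. Tiles in the upper bins are few, and the quartiles of the 40 to 49 bin in Dnmt3L KO were 0.155 and 0.517, which overlap those of the 10 to 19 bin, 0.308 and 0.615.

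**Figure D3:**
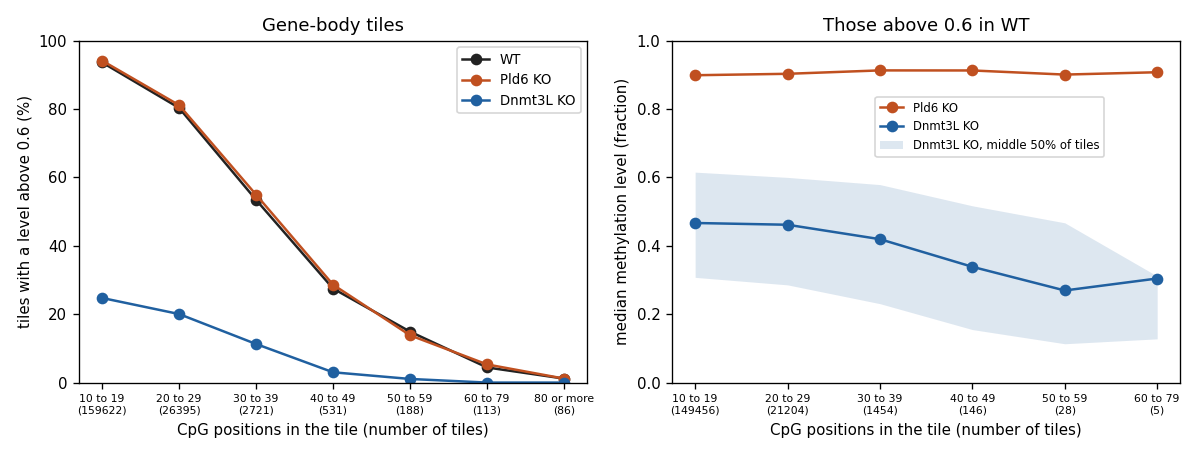
Left, share of gene-body tiles above 0.6 (%, y axis) by the number of CpG positions in the tile (x axis, number of tiles in brackets) in WT, Pld6 KO and Dnmt3L KO; right, median level (fraction) in Pld6 KO and Dnmt3L KO of the tiles above 0.6 in WT, with the middle 50% of tiles shaded for Dnmt3L KO. The Pld6 KO medians stay near 0.9, and the Dnmt3L KO medians run from 0.467 at 10 to 19 positions to 0.269 at 50 to 59.

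The largest losses in Dnmt3L KO, among tiles with at least 30 calls in each library and outside repeat sequence, were in Tenm3, Helb and Rgma. The tile in Tenm3, a gene for a teneurin adhesion protein of the nervous system, lies at chr8:48276001-48277000 and had levels of 0.946 in WT, 0.946 without Pld6 and 0.0602 without Dnmt3L. Its difference between WT and Dnmt3L KO was 0.885 (95% Newcombe interval 0.795 to 0.930). The tile in Helb, a DNA helicase gene (chr10:120089001-120090000), had levels of 0.963, 0.850 and 0.0857. The tile in Rgma, a gene for a repulsive axon guidance molecule (chr7:73417001-73418000), had 0.940, 0.874 and 0.0806. The Tenm3 and Rgma tiles are mostly coding, the Helb tile is 46.8% coding, and their Pld6 KO levels ran from 0.850 to 0.946. Gm35726 and Acnat1, with differences of 0.903 and 0.875, were also low in Pld6 KO.

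At the other end, 18 tiles in 15 genes kept a level above 0.6 in Dnmt3L KO, and 15 of these tiles were in coding exons. Among tiles with at least 30 calls in each library, the highest lower Wilson bounds were those of Ahdc1, Plec, Chd7, Cdc42bpb and Lrrc8a. The Ahdc1 tile (chr4:133063001-133064000), in the gene of a DNA-binding protein with an AT hook, had levels of 0.912 in WT, 0.954 without Pld6 and 0.782 without Dnmt3L. The difference between WT and Dnmt3L KO was 0.130 (0.0215 to 0.261). The tile in Chd7, a chromatin remodeller gene (chr4:8854001-8855000), had 0.945, 0.899 and 0.758, and the tile in Lrrc8a, a gene for a subunit of the volume-regulated anion channel (chr2:30256001-30257000), had 0.976, 0.949 and 0.717. The Dnmt3L KO levels of these 3 tiles rest on 55, 33 and 53 calls. Ehmt2, which encodes a histone H3K9 methyltransferase, and Sall4, a transcription factor gene of germ and stem cells, were also among the 18 tiles.

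The 78 increases in Dnmt3L KO were each smaller than 0.3. The largest among tiles with at least 30 calls in each library was in Dmrt3, a gene of the DM domain family (chr19:25622001-25623000), where the level was 0.0336 in WT, 0.112 without Pld6 and 0.237 without Dnmt3L. The difference between Dnmt3L KO and WT was 0.203 (0.0854 to 0.360), with 38 calls in Dnmt3L KO. The next ones, in Cbx7 and Gm34147, were 0.0628 and 0.0603, and their intervals included 0.

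Genes with more than 1 tile showed how far the levels could differ within a gene. Of the 140 genes with at least 2 tiles, 18 held both a tile under 0.2 and one above 0.6 in WT. Of 105 adjoining pairs of tiles, 92 belonged to the same class of WT level. Of all members, however, 70.9% were in the class under 0.2, and the pairs include those of 1 long stretch in Plec, all above 0.6. The likeness of neighbours was not tested. Ahdc1 had levels of 0.00637 and 0.0145 in its 2 intron tiles in WT and 0.961 and 0.912 in its 2 coding tiles. Tenm3 had a second tile (chr8:48228001-48229000) with levels of 0.0218 in WT, 0.131 without Pld6 and 0 without Dnmt3L, although both of its tiles were coding.

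Plec, which encodes the cytoskeletal linker plectin, held 11 tiles, more than any other gene. They included the longest stretch, of 10 adjoining tiles, all in coding exons on chromosome 15. Their WT levels ran from 0.938 to 0.984 and their Pld6 KO levels from 0.871 to 0.968, so that both libraries were high throughout. In Dnmt3L KO the levels ran from 0.0952 to 0.895. The first tile in the direction of transcription (chr15:76183001-76184000) had 0.895 from 19 calls, and the next (chr15:76181001-76182000) had 0.0952 from 21 calls. The Dnmt3L KO levels were then 0.304, 0.311, 0.472 and 0.521 over the following tiles, and 0.756 at chr15:76176001-76177000. The last 4 tiles had levels from 0.477 to 0.571, and the intervals of these 4 overlapped.

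Sptbn4, a spectrin gene of the axon, and Nrxn2 held 5 tiles each. All tiles of Sptbn4 were at or below 0.0270 in every library. In Nrxn2, 4 tiles were at or below 0.0142 in every library, and the tile at chr19:6481001-6482000, which is mostly coding, had levels of 0.865 in WT, 0.833 without Pld6 and 0.05 without Dnmt3L.

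**Figure D4:**
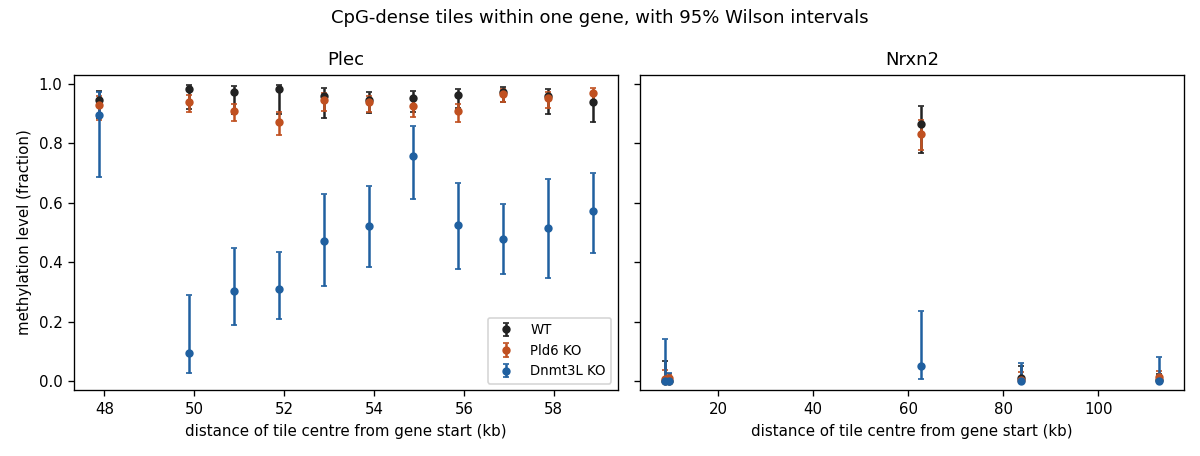
Methylation level (fraction, y axis) of each CpG-dense tile in Plec (11 tiles) and Nrxn2 (5 tiles) by the distance of its centre from the gene start (kb, x axis), in WT, Pld6 KO and Dnmt3L KO; bars are 95% Wilson intervals of the calls. In Plec the WT and Pld6 KO points stay above 0.87 and the Dnmt3L KO points run from 0.0952 to 0.895; in Nrxn2 1 tile is high in WT and Pld6 KO.

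In the Pld6 KO library the CpG-dense tiles inside genes had a median close to that of WT. The median difference, WT minus Pld6 KO, was -0.00526. Lower by at least 0.3 were 9 tiles (0.98%), while 1.79% of all autosomal tiles were. Higher by at least 0.3 were 10 tiles (1.09%), while 1.39% of all autosomal tiles were. The lower share counts tiles that could not fall by 0.3, namely the 651 under 0.2 in WT and 48 from 0.2 to 0.3. Among tiles above 0.6 in WT, 9 of 180 members (5%) and 1.99% of 493726 autosomal tiles were lower. Among tiles at most 0.7 in WT, 10 of 749 members (1.34%) and 6.27% of 134039 autosomal tiles were higher. These shares were not tested. By Fisher's exact test on the calls, 23 tiles (2.51%) were lower and 62 (6.75%) higher, against 1.13% and 0.834% of all autosomal tiles. The test reaches smaller differences in tiles with more calls, so these shares are not at equal depth. In WT the 918 members held 149396 calls and the 603716 autosomal tiles held 25687830, which is fewer per tile. Taking any size of difference, 386 tiles were lower in Pld6 KO, 517 were higher and 15 were equal.

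The 9 tiles that were lower in Pld6 KO were all in introns, and 8 of them were made up of more than 50% soft-masked bases. Among all members 14 tiles were soft-masked to this extent, with median levels of 0.864 in WT, 0.424 without Pld6 and 0.0615 without Dnmt3L. Among the other 904 tiles 1 was lower by at least 0.3 in Pld6 KO, which is 0.111%. Above 0.6 in WT were 12 of the 14 tiles and 168 of the 904. The 8 lower soft-masked tiles were among the 12, and 1 of the 168 was lower. The same split held for gene-body tiles with fewer CpG positions. With 30 to 39 positions, 25 of 69 soft-masked tiles (36.2%) and 6 of 2652 others (0.226%) were lower in Pld6 KO. Of these 69 and 2652 tiles, 59 and 1395 were above 0.6 in WT. With 10 to 39 positions the shares were 12.4% of 7627 tiles and 0.415% of 181111 tiles. None of the 120 highly methylated tiles in coding exons was lower by this amount in Pld6 KO.

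The largest difference was in an intron of Gm35726 (chr3:129025001-129026000), with levels of 0.903 in WT, 0.0545 without Pld6 and 0 without Dnmt3L. The difference between WT and Pld6 KO was 0.849 (0.733 to 0.908). Taking 3 calls as hidden, the 34 calls without methylation in Dnmt3L KO allow a level of up to 0.0882, and the upper Wilson bound was 0.102. Acnat1, an acyltransferase gene (chr4:49466001-49467000), had levels of 0.923, 0.157 and 0.0476, and Zswim2, a SWIM-type zinc finger gene (chr2:83930001-83931000), had 0.850, 0.179 and 0. In LOC115489542 (chr2:175053001-175054000) the levels were 0.892, 0.427 and 0.0755. The Pld6 KO level was below 0.2 in the first 3 of these tiles and not in the last. Galk2, Dnaaf1, Naip5 and Gm30392 had Pld6 KO levels from 0.384 to 0.456, WT levels from 0.818 to 0.964 and Dnmt3L KO levels from 0 to 0.115, with 12 to 26 calls in Dnmt3L KO.

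Zfp978 was the tile with fewer soft-masked bases, 36%. Its levels were 0.900 in WT, 0.193 without Pld6 and 0.165 without Dnmt3L (chr4:147219001-147220000). It was the only member with a match to one of the 7 retrotransposon amplicons of the study that were searched, namely RLTR4, an endogenous retrovirus, with 92% identity over 325 of 348 bases. The 2 other tiles of Zfp978 had WT levels under 0.2.

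Most of the repeat-rich tiles shared sequence with another of them. After their values were seen, the 14 tiles and Zfp978 were aligned among themselves, with alignments of at least 200 bases and 80% identity taken as shared sequence. This joined 8 tiles in Acnat1, Gm35726, LOC115489542, Gm30392, Zswim2, Cfhr3, Gm27243 and Triqk, and 7 of these matched themselves at a shift of 198 to 215 bases. Acnat1 and LOC115489542 were 92.4% identical over 701 bases. The first 5 of the 8 tiles were lower in Pld6 KO, and the last 3 were not. Cfhr3 had levels of 0.783 in WT, 0.817 without Pld6 and 0.455 without Dnmt3L, Gm27243 had 0.758, 0.847 and 0.471, and Triqk had 0.917, 0.902 and 0.333. Of the 11 aligned pairs, 7 were among the 5 lower tiles, 3 were among the other 3, and 1 joined the groups. Dnaaf1 and Naip5 were 83.1% identical over 503 bases, and Galk2 was 88.5% identical over 661 bases to Igk, which had levels of 0.814, 0.634 and 0.0769. The remaining 3 tiles, in Trim30d, Slc17a5 and Zfp978, were joined to none. Trim30d and Slc17a5 had WT levels of 0.0455 and 0.196.

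**Figure D5:**
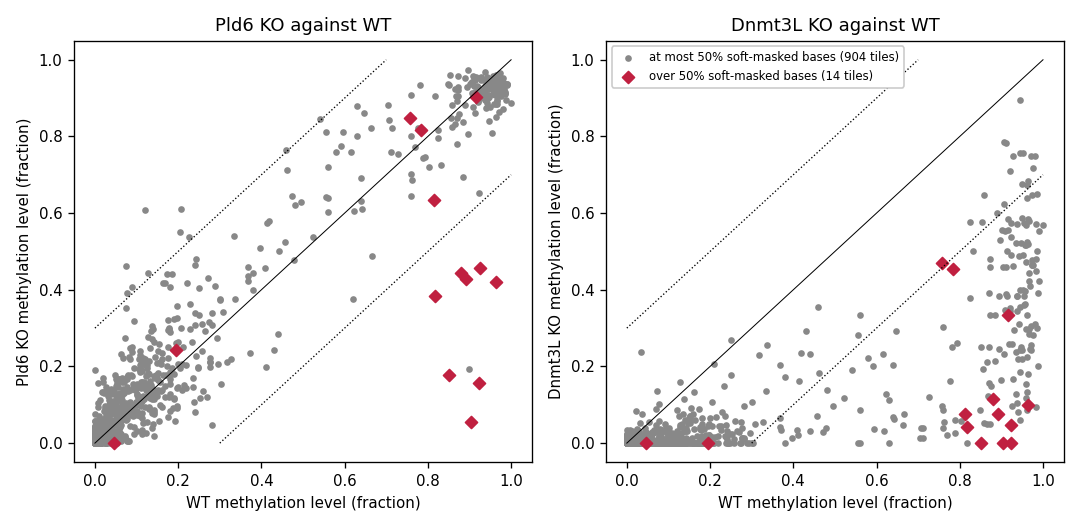
Methylation level (fraction) of each of the 918 CpG-dense tiles inside genes in Pld6 KO (left) and Dnmt3L KO (right) against WT; diamonds are the 14 tiles with over 50% soft-masked bases, the solid line marks equal levels and the dotted lines a difference of 0.3. Below the lower dotted line are 9 tiles in Pld6 KO, 8 of them diamonds, and 184 tiles in Dnmt3L KO.

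Counting CpG positions in the files leaves out tiles in which many positions had no call. When positions were counted in the reference sequence, 1201 tiles reached 40 positions, 283 more than by calls, and 113 in place of 9 were lower in Pld6 KO by at least 0.3. Of the 283 added tiles, 167 were soft-masked by more than 50%, and 103 of these (61.7%) were lower in Pld6 KO, against 1 of the other 116 (0.862%). Above 0.6 in WT were 163 of the 167 and 36 of the 116. The 167 tiles had a median of 19 positions with calls and median levels of 0.912 in WT, 0.303 without Pld6 and 0.0526 without Dnmt3L. Among them 76 aligned with the family of 8 tiles, of which 55 (72.4%) were lower in Pld6 KO, and 48 of the 91 others (52.7%) were lower as well.

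The 10 tiles that were higher in Pld6 KO were of another kind. They held 40 to 47 CpG positions, their WT levels ran from 0.0735 to 0.541, and 9 of them were under 0.2 in Dnmt3L KO. The largest difference was in a tile of Tbc1d16, a gene for a Rab GTPase activating protein (chr11:119210001-119211000), with 23.6% exon bases. Its levels were 0.120 in WT, 0.608 without Pld6 and 0.0857 without Dnmt3L. The difference between Pld6 KO and WT was 0.488 (0.392 to 0.567). A second Tbc1d16 tile (chr11:119174001-119175000) had 0.781, 0.935 and 0.250. The tile in Plch2, a phospholipase gene (chr4:154984001-154985000), had levels of 0.207, 0.611 and 0, and the tile in Cbx7, a Polycomb gene (chr15:79918001-79919000), had 0.0735, 0.462 and 0.136. Acvr2b, an activin receptor gene, also belonged to these tiles, with levels of 0.127, 0.444 and 0.159. With single libraries, a difference of genotype and one of library cannot be told apart here.

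The members were also grouped by gene lists. The 48 tiles in 33 genes of developmental transcription factors had median levels of 0.0450 in WT, 0.0396 without Pld6 and 0 without Dnmt3L, against 0.0783, 0.102 and 0.00957 over all members. Of these, 37 (77.1%) were under 0.2 and 7 (14.6%) above 0.6 in WT, against 70.9% and 19.6% of all members. Lower in Dnmt3L KO by at least 0.3 were 7 (14.6%), as were 20.04% of all members and 69.1% of all autosomal tiles. None differed by that amount in Pld6 KO, where 0.98% of all members were lower and 1.09% higher. Over all autosomal tiles the Pld6 KO shares were 1.79% and 1.39%. Hoxd3, a homeobox gene, had 0.0367, 0.0140 and 0. Foxo3, a forkhead gene, had 0.164 in WT, 0.418 without Pld6 and 0.0614 without Dnmt3L.

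The lists of signalling and neural genes are given beside the 70.9% of all members that were under 0.2 in WT and the 19.6% above 0.6. Lower in Dnmt3L KO here means by at least 0.3, as 20.04% of all members and 69.1% of all autosomal tiles were. Of the 13 tiles in Wnt genes, 9 were under 0.2 in WT and 3 were lower in Dnmt3L KO, and the ligand genes Wnt6 and Wnt10a had WT levels of 0.0109 and 0.0115. Of 21 tiles in genes of the Cacna, Scn and Kcn channel families, 18 were under 0.2 and 2 were lower in Dnmt3L KO. Kcnk12, a potassium channel gene, had 0.00826 in WT. Cacna1a, which encodes a calcium channel of nerve terminals, had levels of 0.00498, 0 and 0.0135. Of 8 tiles in glutamate and GABA receptor genes, 7 were under 0.2, among them Grin2c with 0.00885 and Grm5 with 0.0297 in WT. The 10 tiles of cadherin and protocadherin genes had a median WT level of 0.111, with 6 under 0.2 and 2 above 0.6, and 3 were lower in Dnmt3L KO, while the tiles with most calls, in Dchs1 and Celsr3, had 0.0214 and 0.00738. The 3 tiles in semaphorin genes were under 0.2, with 0.00595 and 0.0882 in the 2 tiles of Sema5b and 0.0144 in Sema6c.

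Values for the other lists follow, with lower in Dnmt3L KO again meaning by at least 0.3. The Notch receptor gene Notch2 had levels of 0.983 in WT, 0.930 without Pld6 and 0.571 without Dnmt3L, and the Notch ligand gene Jag2 had 0.961, 0.914 and 0.638. Among 23 tiles in cytoskeletal linker and spectrin genes 13 were above 0.6 in WT and 11 were lower in Dnmt3L KO, but 11 of the 23, all above 0.6, were those of Plec. The 18 tiles in 15 genes of chromatin modifiers had medians of 0.241, 0.347 and 0.0676, with 4 above 0.6 in WT and 4 lower in Dnmt3L KO. Among these the tiles with most calls, in Prdm13 and Prdm12, were at 0.00602 and 0.00358 in WT. The 11 tiles in motor protein genes had medians of 0.220, 0.181 and 0.0204, with 3 above 0.6 in WT and 4 lower in Dnmt3L KO, and the myosin gene Myo10 had 0.189, 0.114 and 0.0132 while the 2 tiles of the kinesin gene Kif19a had 0.00893, 0.0422 and 0, and 0.220, 0.143 and 0.

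Lists with few members give single values. Hspg2, which encodes the basement membrane proteoglycan perlecan, had 0.966 in WT, 0.886 without Pld6 and 0.443 without Dnmt3L. Tex2, the one tile from the list of piRNA pathway and germ cell genes, had 0.959, 0.919 and 0.568. The collagen gene Col6a2 had 0.132, 0.247 and 0.0488, and Adamtsl5 had 0.0784, 0.102 and 0.0167. Of 5 tiles in imprinted genes, 4 were under 0.2 in WT. The other, in Peg10, a paternally expressed gene derived from a retrotransposon (chr6:4755001-4756000), had 0.371, 0.235 and 0.0341. It was the one lower in Dnmt3L KO by at least 0.3. Kcnk9, a potassium channel gene, had 0.156, 0.158 and 0.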

How the data were processed

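Libraries had been made by the authors by post-bisulfite adaptor tagging from P7 spermatogonia, and the reads were mapped with Bismark to mm10, with uniquely mapped reads kept. The deposited values were counts of methylated and of unmethylated calls per CpG site and their fraction. The fraction was not used, and counts were pooled in 1-kb tiles, with the level as methylated calls divided by all calls. All 17571641 autosomal positions with calls were at the C of a CG in GRCm38. Genes and starts came from the RefSeq annotation and other starts from GENCODE M21. A difference of at least 0.3 was called. Wilson and Newcombe intervals were at 95%. Fisher's exact test on calls (two-sided, Benjamini-Hochberg adjusted over 603716 tiles) served as an alternative and compares libraries. It was computed directly and checked on some tiles against scipy 1.17.1, which also made the adjustment. Sequences were aligned with blastn 2.17.0, and tables were made in Python 3.11.15 with numpy 2.4.6 and pandas 2.3.3. A tile was called coding with at least 50% coding bases and intron with under 50% exon bases. The alternatives changed the limits of the rule, the sites counted, the size of the difference and the test. Depth was 11 to 6366 calls per member tile in WT, 49 to 8527 in Pld6 KO and 11 to 2353 in Dnmt3L KO, and 5 candidate tiles were left out for few calls.

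Named tiles were the 5 with most CpG positions and, among those with at least 30 calls in each library and outside chromosome 18, the 5 with the lowest upper bound in WT, the 5 largest losses and the 3 largest gains in each KO library, the 5 with the highest lower bound in Dnmt3L KO, and 2 from each of the 15 gene lists, with the tiles of the 3 genes that hold most members. Other tiles, the stretches of 200 bases and the alignments among repeat-rich tiles were chosen after their values were seen. Some tiles are not reported here by name. The members and lists were chosen with earlier results of these data known. The methods were tested on simulated data.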

Additional observations from a re-analysis of the deposited data

How the results depend on the processing

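No paired analysis was possible because 1 data file per genotype was analysed and no test between genotypes was made. Of 420 differences of named tiles under 3 settings, 413 stayed within their interval, 7 moved beyond it and 0 changed sign. Values are given in the order WT, Pld6 KO, Dnmt3L KO, and the causes of the changes were not tested. With at least 30 CpG positions the medians were 0.374 and 0.442 in WT and Pld6 KO, the pooled levels 0.384, 0.467 and 0.155, 41.4% of tiles were under 0.2 and 44.9% above 0.6 in WT, 40 tiles were lower and 53 higher without Pld6 and 1564 lower and 1 higher without Dnmt3L. With at least 50 positions the medians were 0.0227, 0.0307 and 0, the pooled levels 0.0918, 0.136 and 0.0291, the shares 87.3% and 8.79%, and 1 tile was lower and 0 higher without Pld6 and 35 lower without Dnmt3L. With CpG positions counted in the reference the pooled levels were 0.209, 0.264 and 0.0689, the shares 58.4% and 31.6%, and 113 tiles were lower without Pld6 and 378 without Dnmt3L. With tiles over 2 kb from every start the medians were 0.0402, 0.0530 and 0, the pooled levels 0.140, 0.196 and 0.0486 and the shares 77.2% and 14.2%, and with curated starts alone 0.0364, 0.0479 and 0, 0.142, 0.201 and 0.0494, and 77.6% and 14.7%. Over 10 kb the pooled levels were 0.209, 0.284 and 0.0724 and the shares 64.96% and 25.7%. With at least 30 calls the pooled levels were 0.171, 0.239 and 0.0580 and 5 tiles were lower in Pld6 KO, and with at most 20% soft-masked bases the pooled levels were 0.180 and 0.254 in WT and Pld6 KO and 0 tiles were lower in Pld6 KO. The pooled levels were 0.186, 0.259 and 0.0638 in protein coding genes, 0.186, 0.255 and 0.0633 without sites over 20 calls, 0.182 in WT and 0.0635 in Dnmt3L KO for tiles shifted by 500 bp (5 higher in Pld6 KO), and 0.241 in Pld6 KO over sites with calls in all 3 libraries. The next alternatives were chosen after seeing the data. Without the 2 deepest tiles the pooled levels were 0.186, 0.255 and 0.0633, and over 5 kb from GENCODE starts they were 0.189 and 0.261 in WT and Pld6 KO, with 113 tiles lower in Dnmt3L KO. With tiles weighted by their WT calls they were 0.198 and 0.0563 without Pld6 and without Dnmt3L. Fisher's exact test called 23 tiles lower and 62 higher without Pld6 and 391 lower and 2 higher without Dnmt3L. A difference of 0.2 gave 26 higher without Pld6 and 1 without Dnmt3L, and one of 0.4 gave 2 higher in Pld6 KO. Limits of 0.1 and 0.8 gave shares of 54.2% and 16.4%. Tiles with no exon bases had a Pld6 KO median of 0.0200.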

Other observations

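The GC box GGGCGG, searched on both strands, was found in 67.8% of the CpG-dense tiles inside genes, against 89.7% of the CpG-dense tiles at transcript starts and 80.2% of those outside genes. Within genes it was found in 74.96% of the tiles under 0.2 in WT, 57.5% of those from 0.2 to 0.6 and 46.7% of those above 0.6.

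The share of highly methylated tiles differed between chromosomes, from 3.45% of 29 tiles on chromosome 6 to 35.6% of 87 tiles on chromosome 4. The 9 tiles lower in Pld6 KO by at least 0.3 lay on chromosomes 2, 3, 4, 8, 13 and 14.

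The 2 deepest tiles, in Filip1l and Zc3h7a on chromosome 16, held 5.96% of the calls in WT, 6.36% without Pld6 and 5.75% without Dnmt3L over all members.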
